A study of Mus musculus with 9 samples.

Results

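Chromatin accessibility at imprinted genes was examined in primary mouse embryonic fibroblasts (MEFs) with and without ANP32E, a chaperone that removes the histone variant H2A.Z from chromatin. The 44 genes were listed by name and grouped into 18 imprinted clusters or single loci, and all 44 of the 44 names were found in the GENCODE M21 annotation of mm10, among 31868 genes of the same gene types. ATAC-seq, in which a transposase cuts and tags open chromatin, was the measurement, and it was available as 1 pooled peak list per group. The groups were WT MEFs (3 libraries), Anp32e null MEFs (3 libraries), Anp32e null MEFs transfected with non-targeting (NT) siRNA (1 library) and Anp32e null MEFs transfected with H2A.Z siRNA (2 libraries). Both siRNA groups therefore lack ANP32E as well, and all cells were of passage below 8. MEFs carry both parental alleles, and the peak lists do not separate them. Because each group had 1 list, differences between groups had no replicate check and no p-value is given.

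Imprinted genes are expressed mainly from 1 parental allele. The choice is set by DNA methylation laid down in the egg or sperm at germline differentially methylated regions (DMRs), many of which are CpG-rich promoters that are open on the unmethylated allele. ZFP57, a zinc finger protein, binds a methylated hexamer and keeps that methylation through early development, whereas CTCF binds the unmethylated H19 control region and insulates Igf2 from its enhancers.

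In WT, the strongest peak at each gene start was scanned on both strands for TGCCGC (the ZFP57 hexamer), GGNGGCAG (a core of the CTCF sites) and GCCATNTT (YY1, a zinc finger factor known for clustered sites at Peg3). The 13 peaks of genes with a germline DMR promoter held 46 ZFP57 hexamers, or 24.5 per 10 kb, against 5.58 per 10 kb in the 22 peaks at the other imprinted promoters and 7.21 per 10 kb in all 15079 start-site peaks. Snrpn had 9 hexamers, the peak shared by Peg3 and Usp29 had 8, Mest had 7 and Plagl1 had 6, while Zrsr1 had none. The strongest Sgce and Impact peaks had none either, and that of Sgce lies at an internal start away from the DMR. Without Sgce the density was 25.7 per 10 kb over 12 peaks. At least 1 hexamer was present in 10 of the 13 germline DMR peaks (76.9%) and in 47.2% of all start-site peaks. The CTCF core was present in 15.4% of the germline DMR peaks and 45.5% of the other imprinted peaks, against 43.8% of all start-site peaks. The YY1 letters were present in 17.1% of imprinted peaks and in 17.1% of all start-site peaks. CpG density did not follow the same order, at 48.1 CpGs per kb in the germline DMR peaks, 59.95 in the other imprinted peaks and 59.6 in all start-site peaks. The Peg3 and Usp29 peak alone held 10 of the 16 YY1 matches found in all 35 imprinted peaks. Stretches of 300 bases, chosen as those with most matches among the parts of the WT peaks outside annotated exons, taken from GRCm38.p6 and written on the strand of the gene, are shown with the ZFP57 hexamers in capitals for Snrpn (chr7:60004307-60004606, minus strand, 505 to 804 bp downstream of the nearest annotated start) and Mest (chr6:30738336-30738635, plus strand, 281 to 580 bp downstream), and with the YY1 letters in capitals for Peg3 (chr7:6727672-6727971, minus strand, 2448 to 2747 bp downstream).
Snrpn: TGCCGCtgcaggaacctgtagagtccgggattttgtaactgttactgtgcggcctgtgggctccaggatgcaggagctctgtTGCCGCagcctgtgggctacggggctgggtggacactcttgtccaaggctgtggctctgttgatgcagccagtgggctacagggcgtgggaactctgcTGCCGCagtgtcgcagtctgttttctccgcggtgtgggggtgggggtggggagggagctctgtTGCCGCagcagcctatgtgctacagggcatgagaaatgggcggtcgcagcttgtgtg
Mest: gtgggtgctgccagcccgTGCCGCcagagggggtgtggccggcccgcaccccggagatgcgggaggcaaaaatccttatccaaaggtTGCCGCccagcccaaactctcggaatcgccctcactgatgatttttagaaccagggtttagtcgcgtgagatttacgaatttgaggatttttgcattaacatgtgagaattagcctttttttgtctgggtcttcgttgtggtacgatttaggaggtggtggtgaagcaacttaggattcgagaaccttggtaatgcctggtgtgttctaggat
Peg3: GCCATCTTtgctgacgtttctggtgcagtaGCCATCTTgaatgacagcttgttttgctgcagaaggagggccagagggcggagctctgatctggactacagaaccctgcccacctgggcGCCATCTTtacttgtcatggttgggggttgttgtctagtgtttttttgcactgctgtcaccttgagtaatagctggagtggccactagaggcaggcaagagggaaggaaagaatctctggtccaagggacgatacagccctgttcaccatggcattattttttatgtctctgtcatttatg
The Snrpn stretch contains 4 hexamers, the Mest stretch 2 of the 7 in its peak, with denser parts overlapping exons, and the Peg3 stretch 3 YY1 matches. Of all 32851 RefSeq promoters of 300 bases, 11.6% held the ZFP57 hexamer, 12.6% the CTCF core and 6.05% the YY1 letters. A match is a description of the sequence and not a measured binding site.

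Most imprinted genes had an open start site in these fibroblasts. A peak within 1 kb of any annotated transcription start site (TSS) was called for 36 of 44 genes in WT (81.8%), 38 in Anp32e null (86.4%), 36 with NT siRNA (81.8%) and 38 with H2A.Z siRNA (86.4%). The same was true of 56.1%, 55.5%, 55.9% and 58.1% of all genes of these gene types. Among protein-coding genes the counts were 31, 32, 31 and 32 of 36, against 67.2%, 66.7%, 66.8% and 68.4% of all protein-coding genes. Imprinted genes had a median of 5 annotated start sites against 2 for all genes, which gives them more windows to meet a peak. With the annotated gene start alone, 32, 32, 30 and 32 of the 44 had a peak, against 52.4%, 51.9%, 52.3% and 54.6% of all genes. A total of 35 genes had a peak in all 4 lists (79.5%, against 52.2% of all genes), 4 had one in none (9.09%, against 38.9%) and 5 in some (11.4%, against 8.9%).

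The medians of their peaks lay below those of all genes. Each peak was ranked within its own list by fold enrichment at the summit, so that 100 is the strongest peak of that list. The median percentile rank of the imprinted TSS peaks was 70.1 in WT, 63.6 in Anp32e null, 64.2 with NT siRNA and 68.1 with H2A.Z siRNA, below the medians of 80.2, 78.4, 77.6 and 79.7 over all genes with a TSS peak. The 95% order-statistic interval of the imprinted median held the median of all genes in every list but Anp32e null, where it ran from 45.6 to 77.1. The interval treats the listed genes as independent, and this outcome changed with the setting. Among protein-coding genes the Anp32e null interval, 45.6 to 84.7, held the median of 80.0. With the gene start alone, the WT interval (50.9 to 76.7) and the NT siRNA interval (48.4 to 76.0) lay below the all-gene medians of 79.9 and 76.8. Ranks spanned nearly the whole scale, from genes such as Sgce, Ppp1r9a and Grb10, whose strongest peaks lay above 95 in every list, to Meg3, the noncoding RNA of the Dlk1 domain, at 10.5, 7.92, 25.5 and 18.7. In Anp32e null the Meg3 peak was at a different, downstream start. Sgce ranked 98.6, 96.3, 99.1 and 98.2 in WT, Anp32e null, and the NT and H2A.Z siRNA lists. Ppp1r9a, the gene for an actin-binding protein, ranked 95.8, 95.9, 99.6 and 98.9, and Grb10 ranked 97.5, 99.4, 99.1 and 98.2. For these 3 genes the strongest peaks sat at internal or alternative start sites rather than at the main promoter. At the promoter it shares with Peg10, for example, Sgce had the Peg10 ranks given below. Median TSS peak widths were 1203, 1138.5, 1078 and 1293 bp, near the 1123, 1091, 1056 and 1260 bp of all genes. The strongest peaks of genes with a germline DMR promoter were wider, with medians of 1462.5, 1219, 1244 and 1632 bp, than those of the other imprinted genes, with 943, 853.5, 718.5 and 1050 bp. Their median ranks were 68.6, 63.6, 59.6 and 60.6, and those of the other genes 72.1, 64.5, 72.1 and 71.1. Some of these peaks lie at another start than the DMR promoter, as for Sgce, for Airn outside WT and for Slc38a4 in Anp32e null. Without Sgce, Airn, Slc38a4 and Impact, a choice made after seeing the data, the medians were 1500.5, 1372.5, 1329.5 and 1638 bp in width and 68.6, 63.6, 56.4 and 59.3 in rank.

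**Figure D1:**
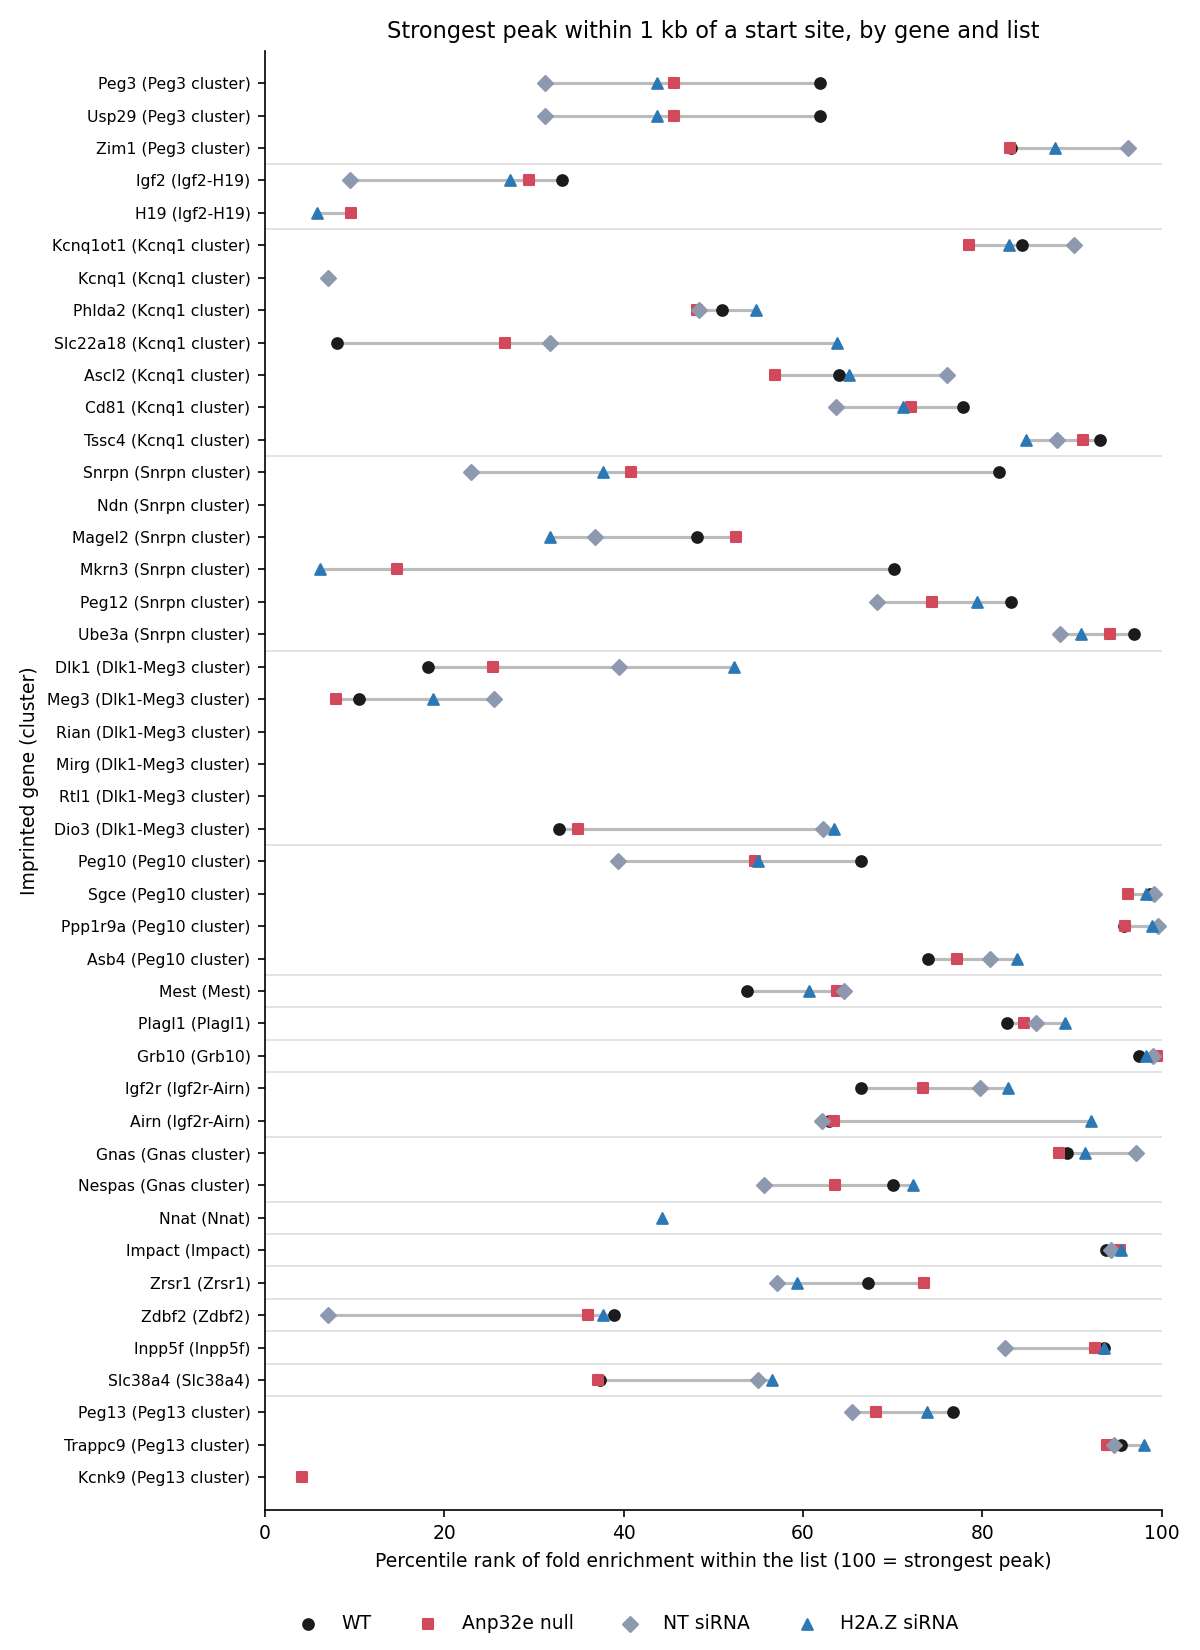
Percentile rank of fold enrichment (x axis, 0 to 100) of the strongest peak within 1 kb of a start site for each of the 44 imprinted genes (y axis, with the cluster), 1 symbol per list, with a grey line from the lowest to the highest list. Snrpn runs from 22.9 to 81.9 and Slc22a18 from 7.99 to 63.8, whereas Impact stays between 93.7 and 95.5, and rows without symbols had no peak.

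The widest spread between groups was found in the Snrpn cluster, the imprinted domain affected in Prader-Willi and Angelman syndromes. Snrpn (ENSMUSG00000102252, chr7:59982495-60140219, minus strand) encodes a protein of the splicing machinery, and its promoter is the germline DMR that controls the domain. Its TSS peak ranked 81.9 in WT, 40.8 in Anp32e null, 22.9 with NT siRNA and 37.6 with H2A.Z siRNA. The peak was 1454 bp wide in WT and 1136, 1039 and 1309 bp in the other lists, each time around the same start. WT was the high list and the 3 lists from Anp32e null cells were all lower. The number of fragments at the summit, recovered from the fold enrichment and p-value of the peak, was 84, 27, 20 and 77, which was 9.50, 5.28, 5.15 and 4.32 times the genome background of each list. On the log2 scale of fragments over background the difference between Anp32e null and WT was -0.85, where the median over all 17139 genes compared was 0.64 and 47 genes were as low, Snrpn included. In rank, 37 genes were as low as Snrpn, whose difference was -41.1 points and ranged from -47.2 to -40.8 over the alternatives that gave a value. With the annotated gene start alone Snrpn had none, since its peak lies at an internal start.

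Mkrn3, a paternally expressed gene for a ring finger protein that restrains the onset of puberty (ENSMUSG00000070527, chr7:62417593-62420139, minus strand), showed the larger difference in rank. Its peak ranked 70.2 in WT and 14.7 in Anp32e null, was not called in NT siRNA, and ranked 6.14 in H2A.Z siRNA. Its width was 1214 bp in WT but 359 and 254 bp in the lists of Anp32e null and H2A.Z siRNA cells, and the summit had 58, 18 and 39 fragments. The difference of -55.4 points between Anp32e null and WT was matched or exceeded by 7 of 17139 genes, Mkrn3 included. It ranged from -58.3 to -53.7 over the alternatives that gave a value, and with a −log10 q of 5 or more there was none. On the log2 scale of fragments over background the difference was -0.90, and 42 genes were as low. The RefSeq promoter of Mkrn3 (chr7:62420104-62420403, minus strand, GRCm38.p6) overlapped the WT peak, which ran from -326 to 887 bp from the start. It did not overlap the Anp32e null peak, which lay 97 to 455 bp into the gene. The H2A.Z siRNA peak, 21 to 274 bp into the gene, overlapped only the downstream edge of the promoter. The promoter is shown with its single YY1 match, read on the opposite strand, in capitals.
Mkrn3: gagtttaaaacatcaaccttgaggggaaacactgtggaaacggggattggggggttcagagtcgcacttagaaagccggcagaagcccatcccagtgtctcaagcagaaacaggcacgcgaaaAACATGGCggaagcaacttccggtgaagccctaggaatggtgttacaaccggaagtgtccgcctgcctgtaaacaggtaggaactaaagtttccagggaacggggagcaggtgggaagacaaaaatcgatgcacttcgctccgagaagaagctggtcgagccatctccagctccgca

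The other paternally expressed genes of this cluster differed less between lists. Peg12, an intronless gene, ranked 83.2, 74.4, 68.2 and 79.4, highest in WT. Magel2, a regulator of endosomal protein sorting, ranked 48.2, 52.5, 36.7 and 31.7, so that its Anp32e null value was above WT. Ndn, the gene for the growth suppressor necdin, had no peak within 1 kb of its GENCODE start, but the RefSeq promoter (chr7:62348027-62348326) starts further into that gene model and overlapped a peak in all 4 lists, with ranks of 67.0, 66.5, 47.6 and 46.9. Ndn therefore counts as without a TSS peak only because of the annotation used. Ube3a, a ubiquitin ligase expressed from the maternal allele in neurons and from both alleles in most other cells, ranked 96.9, 94.3, 88.6 and 90.9. Across the cluster, only 7 sites lay within the genes and 10 kb on either side, and 5 of these were called in all 4 lists.

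**Figure D2:**
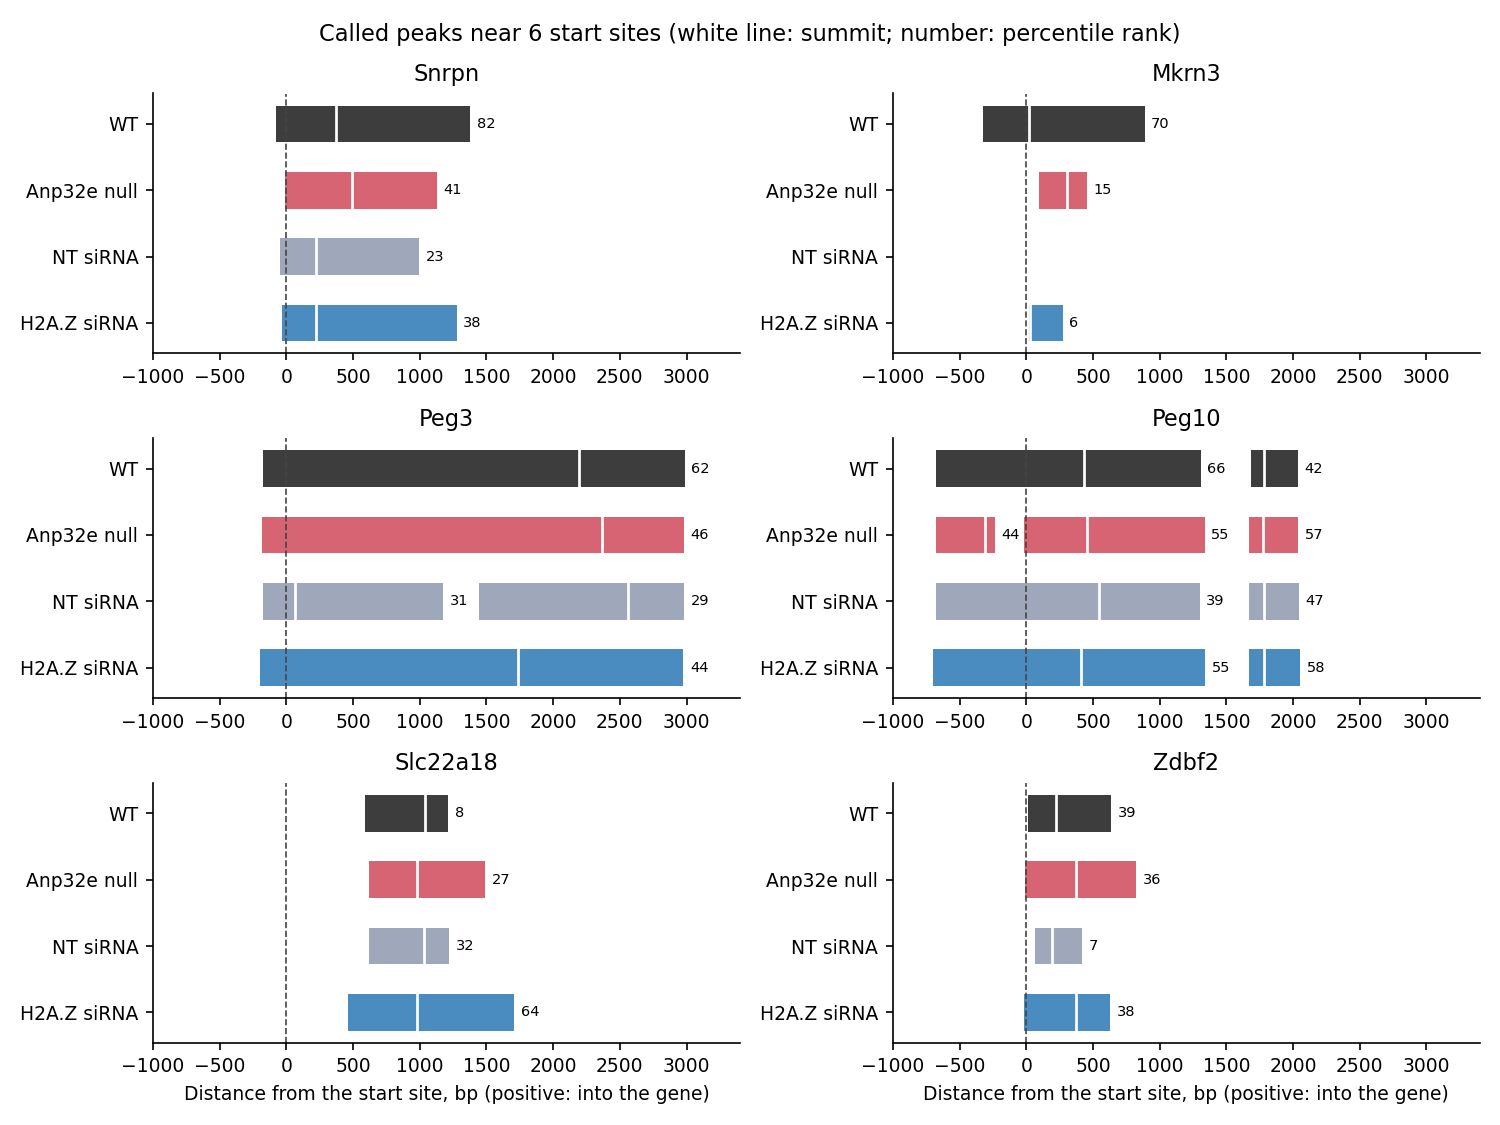
Called peaks around the start sites of 6 imprinted genes, as bars from the first to the last base in bp from the nearest annotated start (x axis, positive into the gene), for each of the 4 lists (y axis), with the summit as a white line and the percentile rank beside each bar. The WT bars of Snrpn and Mkrn3 are the longest of their panels (1454 and 1214 bp), and NT siRNA has no bar for Mkrn3.

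The Peg3 cluster showed a similar order of lists at its germline DMR. Peg3, a zinc finger repressor gene, and Usp29, a deubiquitinase gene read in the opposite direction, share 1 peak, so their values are 1 measurement. This peak (WT, chr7:6727432-6730594) ranked 61.9 in WT, 45.6 in Anp32e null, 31.2 with NT siRNA and 43.7 with H2A.Z siRNA. WT was again the highest list. In NT siRNA the region was called as separate peaks, the stronger of 1352 bp, whereas the other lists had 1 peak of 3163 to 3172 bp. Fragments over background were 22.3, 23.3, 20.1 and 20.4, so the log2 difference between Anp32e null and WT was 0.06, less than the median of 0.64 over all genes. In rank the difference was -16.3, and it lay between -16.6 and -11.0 over the alternatives other than the one that requires the summit in the window, which gave no value. Zim1, the maternally expressed neighbour, ranked 83.2, 83.1, 96.3 and 88.1 and did not have this order. Inside the long Usp29 gene, sites 41948 bp downstream and 33562 bp upstream of its nearest start sites were not called in WT but ranked 41.7, 28.0 and 41.8, and 59.4, 68.2 and 73.7, in the Anp32e null list and the NT and H2A.Z siRNA lists.

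Peg10, a retrotransposon-derived gene needed for the placenta, shares its germline DMR with Sgce, the gene for epsilon-sarcoglycan. Its TSS peak ranked 66.5, 54.6, 39.3 and 55.0. The Anp32e null value was 11.8 points below WT, but it was 14.0 points above WT when the deeper list was thinned to the depth of the other, so no direction can be read for Peg10. Asb4, a maternally expressed gene of the same cluster, ranked 73.9, 77.1, 80.9 and 83.8, lowest in WT.

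The Kcnq1 cluster held a gene with its lowest rank in WT. Slc22a18, a maternally expressed transporter gene (ENSMUSG00000000154, chr7:143473736-143499334, plus strand), had a peak near an alternative start that ranked 7.99 in WT, 26.7 in Anp32e null, 31.8 with NT siRNA and 63.8 with H2A.Z siRNA. Its widths were 624, 873, 604 and 1245 bp. Fragments over background were 4.07, 6.65, 7.21 and 11.3, with WT the low list and H2A.Z siRNA the high one. On the log2 scale the difference in fragments over background between Anp32e null and WT was 0.71, close to the median of 0.64 over all genes, so Slc22a18 stood apart in rank and not in fragments in that comparison. Between H2A.Z siRNA and NT siRNA it was 0.64, where the median over all genes was -0.31. The difference between Anp32e null and WT was 18.8 points (18.4 to 20.4 over the alternatives), and the H2A.Z siRNA rank exceeded the NT siRNA rank by 32.0 points (26.2 to 36.9). Slc22a18 had no value in either comparison with a TSS window of 500 bp, with the gene start alone or with the summit required in the window, nor in the first with a −log10 q of 5 or more. The RefSeq promoter of Slc22a18 lay upstream of this peak and overlapped no peak. Kcnq1ot1, the paternally expressed noncoding RNA whose promoter is the germline DMR of the cluster, ranked 84.4, 78.5, 90.2 and 83.0. Its host gene Kcnq1, a potassium channel gene, had a TSS peak in NT siRNA alone, with a rank of 6.96 and 14 fragments. Phlda2, a maternally expressed gene that limits placental growth, ranked 50.9, 48.2, 48.4 and 54.7. Ascl2, a transcription factor of the placental trophoblast, ranked 64.0, 56.9, 76.0 and 65.2. Cd81, a tetraspanin gene, ranked 77.9, 72.0, 63.7 and 71.1, and sites 9597 and 7925 bp upstream of its start were called in the 3 lists of Anp32e null cells and not in WT. Tssc4 ranked 93.2, 91.2, 88.3 and 84.9.

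At Igf2 and H19, peaks were examined at the start sites and over the control region upstream of H19. H19, a maternally expressed noncoding RNA, had a TSS peak in Anp32e null (rank 9.63, 28 fragments) and H2A.Z siRNA (rank 5.76, 77 fragments) and none in WT or NT siRNA. Igf2, the paternally expressed insulin-like growth factor, ranked 33.1, 29.4, 9.48 and 27.3, and its strongest peak in H2A.Z siRNA lay at another of its starts than in the other lists. A site centred 2370 bp upstream of H19 (chr7:142580027-142581000) was called in every list, with ranks of 56.4, 60.7, 68.0 and 80.8, and another centred 3756 bp upstream (chr7:142581697-142582101) ranked 6.49, 16.4, 13.2 and 19.4. WT was the lowest list at both. The nearer site ranked above the Igf2 start in every list, and the farther one below it in every list but NT siRNA. The nearer site held 2 CTCF cores and the farther one 3. At the nearer site the summit windows of the other 3 lists lie further along the site and hold 0 cores, against 1 in the WT window. The bases around their WT summits (chr7:142580247-142580487 and chr7:142581754-142581994, plus strand, GRCm38.p6) are shown with the CTCF core, here read on the opposite strand, in capitals.
H19 nearer site: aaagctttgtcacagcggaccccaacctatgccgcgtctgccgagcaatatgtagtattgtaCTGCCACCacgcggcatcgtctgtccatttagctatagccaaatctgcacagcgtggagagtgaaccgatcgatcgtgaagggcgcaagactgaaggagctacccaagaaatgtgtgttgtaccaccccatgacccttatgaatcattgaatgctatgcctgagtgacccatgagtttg
H19 farther site: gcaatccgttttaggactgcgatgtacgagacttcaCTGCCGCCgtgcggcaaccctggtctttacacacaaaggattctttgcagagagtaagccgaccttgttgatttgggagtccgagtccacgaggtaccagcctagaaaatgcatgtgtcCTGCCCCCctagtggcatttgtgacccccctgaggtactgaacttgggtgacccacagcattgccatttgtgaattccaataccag

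The Dlk1-Meg3 cluster had weak start sites. Dlk1, a Notch pathway ligand of the paternal allele, ranked 18.1 in WT, 25.4 in Anp32e null, 39.5 with NT siRNA and 52.3 with H2A.Z siRNA. Dio3, an enzyme that inactivates thyroid hormone, ranked 32.8, 34.9, 62.3 and 63.5, so that both siRNA lists were above both lists of untransfected cells. In WT the Dio3 site was called as 2 peaks, the stronger of 709 bp, and in the other lists as 1 peak of 1469, 1466 and 2015 bp. Rian, Mirg and Rtl1 had no TSS peak in any list. Sites within their gene windows did have peaks, and the one 2208 bp downstream of the nearest Mirg start ranked 98.37, 95.02, 98.34 and 95.57.

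At Igf2r and Airn, the best-known promoter pair on this list, the main promoters differed in order. The promoter of Igf2r, the maternally expressed receptor that clears IGF2, ranked 66.5, 73.4, 79.7 and 82.9, lowest in WT. The promoter of Airn (chr17:12740135-12741759), the paternally expressed noncoding RNA that silences Igf2r and whose promoter is a germline DMR, ranked 62.9, 55.0, 51.5 and 52.3, highest in WT. Another annotated start of Airn (chr17:12816284-12817288) ranked 55.9, 63.5, 62.1 and 92.1 and supplied the strongest Airn peak in every list but WT. Igf2r and Airn windows overlap, and together they held 20, 23, 25 and 28 peaks.

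In the Gnas cluster, the upstream antisense transcript Nespas ranked 70.1, 63.5, 55.7 and 72.2 at its germline DMR promoter. A Gnas start further into the gene (chr2:174326992-174328133) ranked 67.4, 57.9, 39.2 and 45.2, highest in WT, while the strongest Gnas peak, at another start, ranked 89.4, 88.6, 97.1 and 91.4, highest in NT siRNA. The internal Grb10 start at chr11:12025447-12026635, in the gene for an insulin receptor adaptor, ranked 67.0, 50.8, 47.6 and 48.2, while the strongest Grb10 peak was lowest in WT. These are single starts among several, since Gnas had 6, 6, 6 and 5 TSS peaks and Grb10 had 3, 3, 3 and 4.

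Among the single genes, Zdbf2, a paternally expressed gene active in the pituitary and hypothalamus, ranked 38.9, 36.0, 6.96 and 37.6, with NT siRNA the low list. Mest, a hydrolase gene of the paternal allele, ranked 53.7, 63.7, 64.6 and 60.6, and its site was called as 2 peaks in WT, the stronger of 860 bp, and as 1 peak of 1765 to 2150 bp in the other lists. Plagl1, a zinc finger transcription factor gene, ranked 82.7, 84.7, 86.0 and 89.2. Zrsr1 ranked 67.2, 73.4, 57.1 and 59.3, and Slc38a4, an amino acid transporter gene, 37.4, 37.1, 55.0 and 56.5, with the Anp32e null value from another of its starts. Inpp5f, an inositol phosphatase gene, ranked 93.6, 92.5, 82.5 and 93.6. Impact, a translation regulator gene, ranked 93.7, 95.3, 94.3 and 95.5, a narrow range. Nnat, a neuronal gene that lies inside Blcap, had a TSS peak in H2A.Z siRNA alone, with a rank of 44.2, a width of 371 bp and 225 fragments. Peg13, a noncoding RNA inside Trappc9, ranked 76.7, 68.1, 65.4 and 73.8, and Trappc9 itself ranked 95.5, 93.8, 94.6 and 98.1. Kcnk9, a potassium channel gene of the brain, had a TSS peak in Anp32e null alone, with a rank of 4.07.

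One comparison asked how accessibility differs without ANP32E. Over the 36 imprinted genes with a TSS peak in both lists, the median rank difference between Anp32e null and WT was -1.79 points, near the -1.44 of all 17139 genes, and 23 of 36 were lower in Anp32e null (63.9%) against 62.5% of all genes. By fragments over background, 5 of 36 had fewer in Anp32e null (13.9%), against 5.32% of all genes, so most were higher on that scale. Among the 5 is Airn, whose WT and Anp32e null values come from different starts. A difference of 10 points or more was used as a marker of size. By this measure 5 imprinted genes were lower in Anp32e null (13.9%), where 12.2% of all genes were: Mkrn3, Snrpn, Peg3 and Usp29 with their shared peak, and Peg10, whose direction turned at equal depth. Without Peg10, 4 of 35 genes were lower (11.4%). The 2 that were higher (5.56%), Slc22a18 and Mest, compare with 7.26% of all genes. As a share over all start sites, imprinted genes were near the background in both directions, while Mkrn3 and Snrpn stood at the far end of all genes. With the annotated gene start alone, 8 of 30 imprinted genes were lower (26.7%), against 12.9% of all genes, and 0 were higher, against 6.8%. Among these 8, Peg3 and Usp29 share 1 peak, and Peg10 and Sgce share another, the one whose direction turned at equal depth. The 5 genes that were lower over all start sites, which rest on 4 peaks, are paternally expressed, out of 21 paternally expressed genes compared. Without Peg10 they were 4 of 20, and none of the 12 genes grouped as maternally expressed, Ube3a among them, was lower by 10 points. With the gene start alone they were 6 of 17, counting each shared peak under both of its genes, and 1 of 10, and at equal depth 4 of 21 and 1 of 11. Higher by 10 points were 1 paternally and 1 maternally expressed gene over all start sites. These counts were 0 and 0 with the gene start alone, and 4 and 2 at equal depth. The difference between the alleles was not tested. Median differences were -2.89 points for paternally and -1.79 points for maternally expressed genes. TSS peaks of H19 and Kcnk9 were called in Anp32e null and not in WT (2 of 44 genes, with 1.7% of all genes), and no imprinted gene had one in WT alone of the pair (2.31% of all genes).

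The other comparison set H2A.Z siRNA against NT siRNA, both in Anp32e null cells, to ask what lowering H2A.Z does there. Over the 35 imprinted genes compared, the median rank difference was 3.19 points, against 2.24 over all 17632 genes, and 24 of 35 were higher in H2A.Z siRNA (68.6%), against 67.5% of all genes. By fragments over background, 26 of 35 had fewer in H2A.Z siRNA (74.3%), as had 85.8% of all genes. A total of 12 were higher by 10 points or more (34.3%), where 15.7% of all genes were. The largest differences were 32.0 points at Slc22a18, 30.7 at Zdbf2 and 30.05 at Airn, followed by 17.8 at Igf2, 16.5 at Nespas, 15.7 at Peg10, 14.7 at Snrpn, 12.8 at Dlk1, 12.4 at Peg3 and Usp29, 11.2 at Peg12 and 11.1 at Inpp5f. The Airn difference came from its other start and was 0.777 with the gene start alone and 1.86 with ranks by −log10 p. Ascl2 alone was lower by that much, by -10.9 points (2.86%, with 2.76% of all genes). This count depended on how many peaks each list holds, since the H2A.Z siRNA list has 108409 peaks and the NT siRNA list 89272. When both lists were cut to 82567 peaks, 4 imprinted genes were higher (12.1%) and 5 lower (15.2%), against 5.73% and 11.7% of all genes. At equal depth 9 were higher (25.7%) and 5 lower (14.3%), against 12.6% and 7.69% of all genes. Slc22a18, Zdbf2 and Nespas kept a difference of 10 points or more under every alternative that gave them a value. Of the 12 genes higher in rank, Peg12, Snrpn, Dlk1 and Igf2 had fewer fragments over background in H2A.Z siRNA than in NT siRNA, with log2 differences of -0.36, -0.25, -0.17 and -0.15, where the median over all genes was -0.31. Peg10 and the Peg3 and Usp29 peak were at 0.00 and 0.02. Of the genes higher by 10 points, 10 were among the 20 paternally expressed genes compared and 1 among the 12 maternally expressed genes. With the same number of peaks they were 2 of 19 and 1 of 11. At equal depth they were 8 of 20 and 1 of 12. Lower by 10 points were 0 of the 20 paternally and 1 of the 12 maternally expressed genes. Once both lists were cut to 82567 peaks, 3 of 19 and 2 of 11 were lower. The lower counts at equal depth were 2 of 20 and 3 of 12. The difference between the alleles was not tested. TSS peaks of H19, Nnat and Mkrn3 were called in H2A.Z siRNA and not in NT siRNA (3 of 44 genes, with 2.74% of all genes), and that of Kcnq1 in NT siRNA and not in H2A.Z siRNA (1 gene, with 0.59% of all genes).

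**Figure D3:**
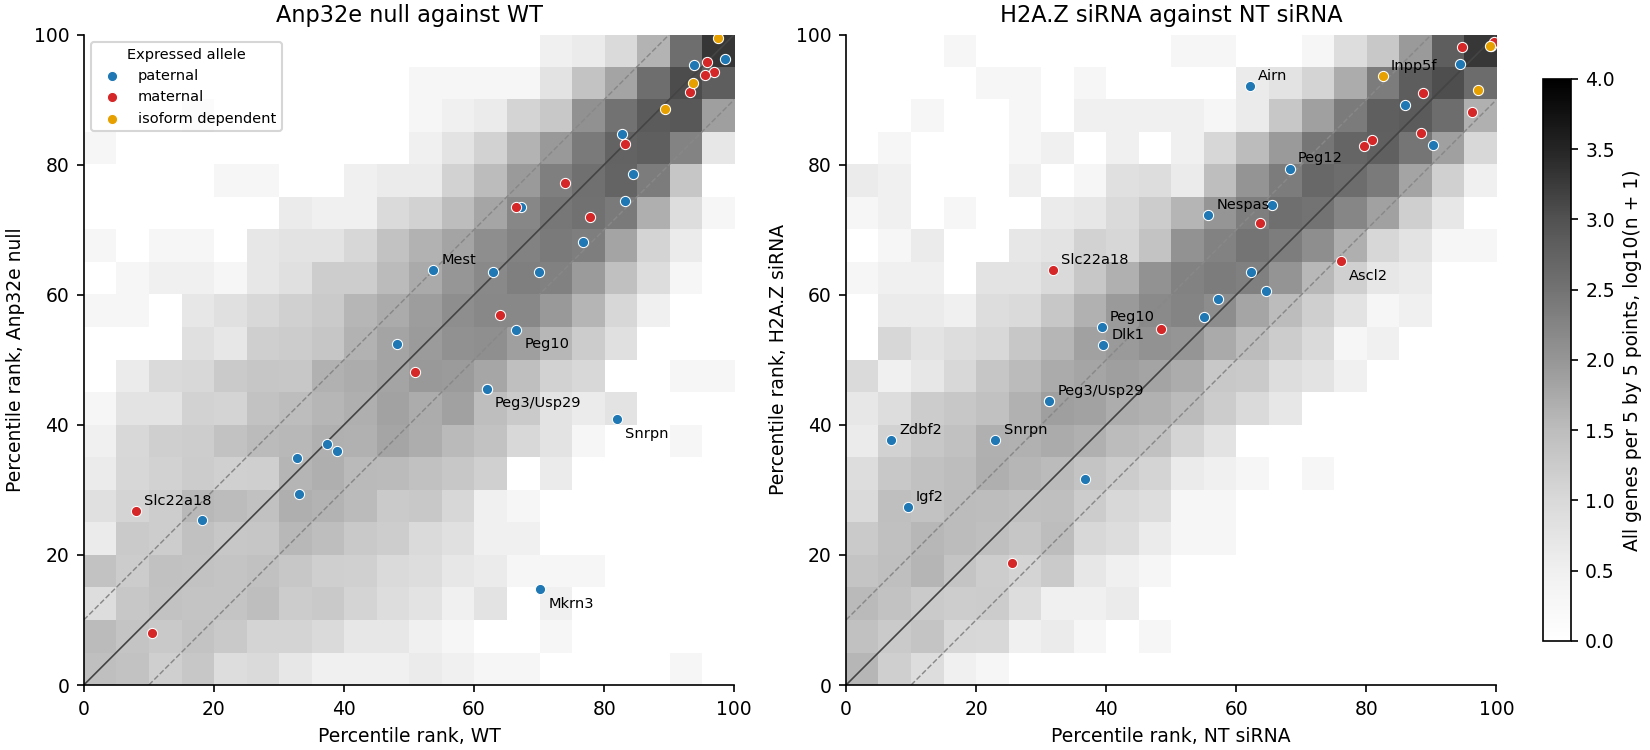
Percentile rank of the strongest TSS peak in Anp32e null against WT (left) and in H2A.Z siRNA against NT siRNA (right), with imprinted genes as points coloured by the expressed allele and all genes as a grey density on a log10 scale; dashed lines mark a difference of 10 points. Mkrn3 and Snrpn lie far below the line on the left, at differences of -55.4 and -41.1, and 12 genes lie above the upper dashed line on the right.

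Peaks across whole gene windows gave a similar picture of shared sites. The gene bodies with 10 kb on either side cover 3347 kb and held 199 peaks in WT, 187 in Anp32e null, 184 with NT siRNA and 208 with H2A.Z siRNA. Merged over lists these were 253 sites, of which 141 (55.7%, 95% Wilson interval 49.6 to 61.7) were called in all 4 lists, where 45.9% of all 128522 merged sites were. The interval covers counting error only. Of the 65 sites at a start site, 47 were in all 4 lists (72.3%, against 70.2% of all start-site sites), and of the 188 others 94, against 40.2% of all other sites. Sites in WT alone numbered 21 (8.30%, with 6.94% of all sites), and those in H2A.Z siRNA alone 20 (7.91%, with 13.9% of all sites). Sites in all 3 lists from Anp32e null cells and not in WT numbered 11 (4.35%, with 5.50% of all sites). Trappc9 had 30 window peaks in WT and 22, 21 and 22 in the other lists, and Igf2r had 9 in WT and 11, 13 and 16 in the others. Zdbf2 had a single site and Zrsr1 had 4, all of them called in every list.

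**Figure D4:**
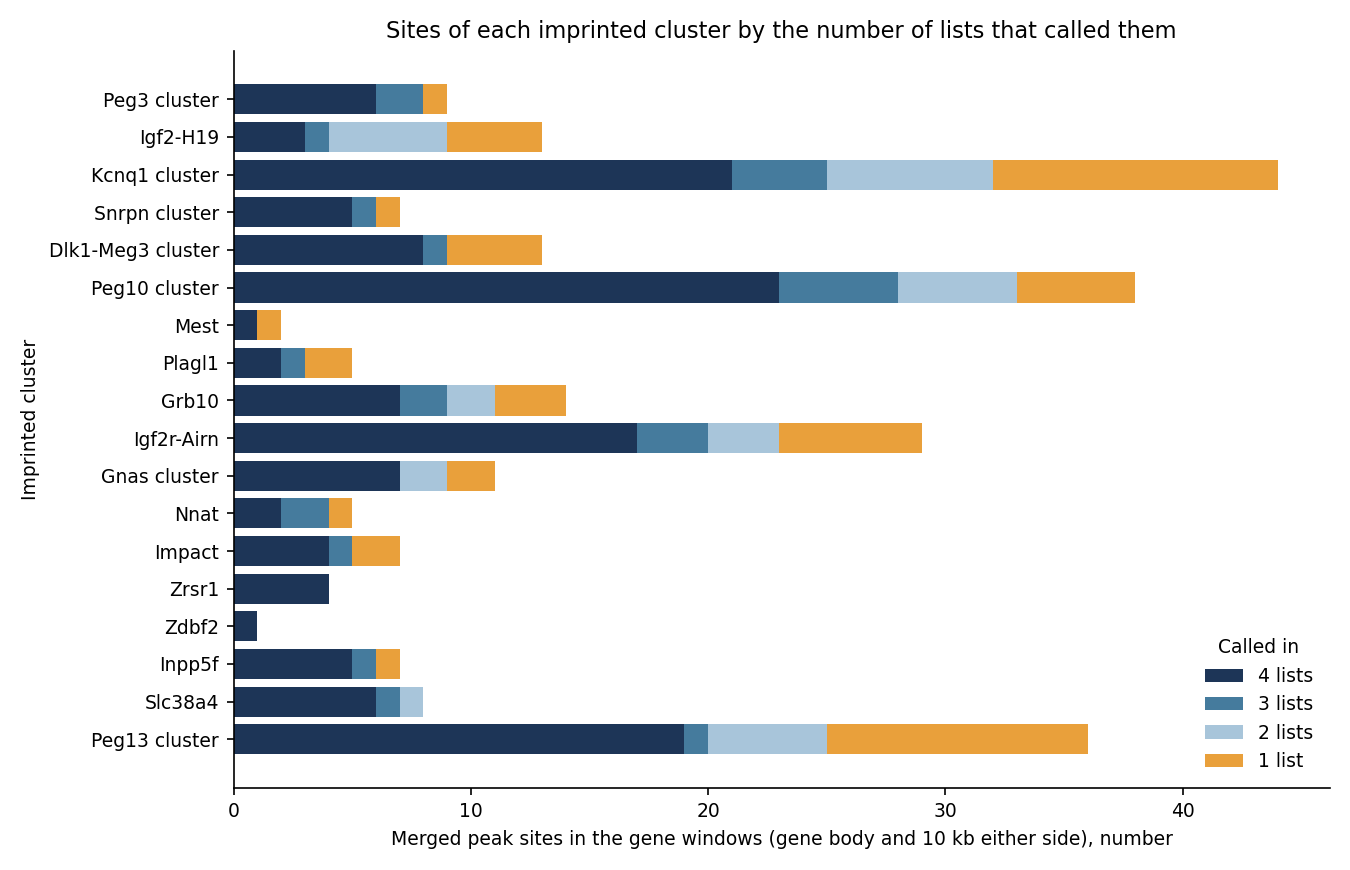
Number of merged peak sites (x axis) in the gene windows of each imprinted cluster or single gene (y axis), coloured by the number of lists that called them. The Kcnq1 cluster has 44 sites, of which 21 are in all 4 lists, and the Snrpn cluster has 7, of which 5 are.

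Depth differed between the lists and moves with the groups. Library number does so too, except that WT and Anp32e null each had 3 libraries. The lists held 84126, 82640, 89272 and 108409 peaks as deposited, their median widths were 572, 561, 539 and 658 bp, the median summit held 50, 43, 54 and 156 fragments, and the genome background was 8.85, 5.12, 3.88 and 17.8 fragments. Group and depth cannot be told apart where each group has 1 list, nor can number of libraries outside the comparison of Anp32e null with WT. All 10 fibroblast markers had a TSS peak in every list, whereas epithelial markers had one for 3, 3, 4 and 4 of 5 genes, endothelial markers for 4, 3, 4 and 4 of 4, blood markers for 1, 1, 1 and 2 of 4, neural markers for 1, 2, 2 and 2 of 3 and pluripotency markers for 0, 0, 0 and 1 of 3. The median rank of the fibroblast marker peaks was 60.8, 53.8, 50.7 and 58.2, highest in WT and lowest in NT siRNA, as at Snrpn and Peg3. Fn1, Vim, Col1a1 and Pdgfrb were each highest in WT and lowest in NT siRNA. The other fibroblast markers were not, and Col3a1 ran the other way, at 23.5, 49.7, 53.2 and 62.6. The median rank of the epithelial marker peaks was 36.7, 30.6, 57.3 and 58.2, higher in both siRNA lists, as at Dio3 and Dlk1. The part of other cells, and of the differing ranks of the fibroblast markers, in the differences was not tested.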

How the data were processed

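ATAC-seq libraries (Nextera DNA Flex) were aligned by the authors to mm10 with Bowtie2, duplicates were removed with Picard, and peaks were called with MACS2 on the pooled libraries of each group. The deposited lists give fold enrichment at the summit, −log10 p and −log10 q as MACS2 writes them, with the lowest −log10 q of a list between 1.30 and 1.31. The authors excluded 1 over-tagmented library of the H2A.Z knockdown ATAC-seq experiment, without stating its arm.

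Percentile ranks of fold enrichment were computed within each list over peaks on assembled chromosomes (84040 in WT, 82567 in Anp32e null, 89272 with NT siRNA and 108409 with H2A.Z siRNA). The strongest peak overlapping by 1 bp or more the 1 kb on either side of any GENCODE M21 transcript start stood for a gene. Every member was described by cluster, and values in all lists were given for those whose rank differed by 10 points or more in a comparison or were not called in every list. Summit fragments and genome background were solved from fold and −log10 p, all of them whole to within 0.05. All peak ends lay within the GRCm38.p6 chromosomes, from which sequences were read, and RefSeq promoters matched 34 of 44 members. Expressed alleles and germline DMRs were assigned from general knowledge of imprinting, with least certainty for Slc38a4, Asb4, Ppp1r9a, Inpp5f and Cd81. Ube3a was counted as maternally expressed, although most cells other than neurons express both of its alleles. The members, lists and tests were chosen with earlier results of these data known. Python 3.11.15, numpy 2.4.6, scipy 1.17.1, pandas 2.3.3, pysam and samtools 1.23.1 were used.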

Additional observations from a re-analysis of the deposited data

How the results depend on the processing

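Under the alternatives 160 of the summary values and 164 of the single-gene differences moved little (counts within 1.5 times, single-gene differences by under 10 points with the same sign, shares and medians within their 95% interval), and the following did not. With the annotated gene start alone, 72.7% of imprinted genes had a TSS peak in Anp32e null and in H2A.Z siRNA, and the median difference between Anp32e null and WT was -5.38 points, against -1.57 for all genes. With a −log10 q of 5 or more that median was 0.157, which turned its sign, against -0.823 for all genes. The 2 genes higher in Anp32e null became 6 at equal depth (17.1%, against 11.7% of all genes), 1 with a TSS window of 500 bp, 1 with the summit in the window, 1 with ranks by −log10 p and 0 with the gene start alone, and the 5 lower became 8 with the gene start alone (26.7%, against 12.9% of all genes). Of these 8, Peg3 and Usp29 share 1 peak, as do Peg10 and Sgce. The median difference between H2A.Z siRNA and NT siRNA was 0.215 with the same number of peaks and 0.436 at equal depth, against -0.974 and 1.28 for all genes. The 12 genes higher in H2A.Z siRNA became 4 with the same number of peaks (12.1%, against 5.73% of all genes). The 1 lower became 5 with the same number (15.2%, against 11.7% of all genes) and 5 at equal depth (14.3%, against 7.69% of all genes). That count became 2 with the gene start alone and 0 with ranks by −log10 p. At equal depth Peg10 turned to 14.0 points between Anp32e null and WT, and Snrpn to -9.58 and Peg12 to -1.16 between H2A.Z siRNA and NT siRNA. In the latter comparison, other single-gene differences also moved. With the same number of peaks, Peg3 and Usp29 were at 0.394, Igf2 at 2.41, Snrpn at 1.46 and Dlk1 at 2.72. At equal depth Dlk1 was at 2.203 and Zdbf2 at 20.4. Airn was at 40.6 with a TSS window of 500 bp, 0.777 with the gene start alone and 1.86 with ranks by −log10 p. The causes were not tested beyond what each setting changes. The use of the same merged site in both lists was chosen after seeing the data and moved the count of genes lower in Anp32e null from 5 to 6. Leaving out each replicate was not run, since each group has 1 pooled list. No paired analysis was possible because the peak lists hold no replicates. Depth limits weak peaks, such as those of Kcnq1 and Kcnk9 with 14 and 24 fragments, whose absence from a list does not show closed chromatin.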

Other observations

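Dcn, the decorin gene, which is imprinted in the placenta, ranked 17.2 in WT, 30.6 in Anp32e null, 45.9 with NT siRNA and 75.8 with H2A.Z siRNA at its start site. Cdkn1c, the cell cycle inhibitor of the Kcnq1 domain, ranked 18.49, 20.34, 49.96 and 57.63. Slc22a3, which lies beyond Igf2r, ranked 31.2 and 57.7 in WT and Anp32e null, was not called in NT siRNA and ranked 4.36 in H2A.Z siRNA. Of 26 further imprinted genes, 17, 18, 15 and 17 had a TSS peak in the same order of lists, against 56.1%, 55.5%, 55.9% and 58.1% of all genes. Of the 17 with a peak in both lists, 3 were lower and 2 higher by 10 points or more in Anp32e null than in WT, against 12.2% and 7.26% of all genes. Of 18 regulators of imprints, 17, 17, 17 and 18 had a TSS peak. Zfp57 itself ranked 92.6, 91.8, 90.7 and 92.8, Trim28, its corepressor, 90.9, 87.5, 80.9 and 82.6, and Setdb1, a histone H3 lysine methyltransferase that acts with Trim28, 46.5, 36.0, 87.7 and 89.0, so that both siRNA lists were above both lists of untransfected cells. These genes were singled out after their values were seen.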
